A study of Rattus norvegicus with 6 samples.

Results

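The liver genes of glucose production, glycogen and glucose sensing were described through 8 gene symbols, namely G6pc, Pck1, Fbp1, Pklr, Gys2, Pygl, Pfkfb1 and Slc2a2. Every row of the expression table that carried one of these symbols was taken, which gave 9 of 19616 rows because G6pc named 2 of them. All 9 rows were among the 14864 rows tested, those whose mean over the 6 rats reached 0.1 FPKM. FPKM are fragments scaled to transcript length and to the fragments of the library, a scale per length on which levels of different genes can be compared.

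RNA from the livers of male SD rats was sequenced after ribosomal RNA had been removed, with 1 library per rat and 3 rats in each group. The FL group (rats FL2, FL5 and FL12, livers labelled fibrosis) had received CCl4, a solvent that injures hepatocytes, mixed with olive oil and given into the peritoneum for 5 weeks, as 2 weekly doses of 2 mL/kg. The CL group (rats CL5, CL6 and CL7, livers labelled normal) had received the same volume of oil alone. Feeding before sampling, the hour of sampling and how these rats were picked from larger groups are not given in the sources used here. Values per rat are listed throughout in the order CL5, CL6, CL7 for the CL rats and FL2, FL5, FL12 for the FL rats.

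The liver raises blood glucose by breaking down glycogen and by building glucose from lactate, glycerol and amino acids. Glucagon favours both routes in the fasted animal, and glucocorticoids favour the building of glucose. In the fed animal, insulin and the entry of glucose through the transporter Slc2a2 favour its storage as glycogen and its breakdown by glycolysis. Kidney also makes glucose, and muscle and many other tissues use other isoforms of several of these enzymes.

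The tissue label was checked against markers. Of 10 hepatocyte markers, 10 were tested and 0 passed an adjusted p of 0.05 in limma in either direction (1 higher and 1 lower at the unadjusted p). Even so, every FL rat lay below every CL rat in 5 of them and above in 2. The most abundant, albumin (Alb), was listed at 33392, 31431 and 31992 FPKM in the CL rats and at 24149, 25052 and 25209 FPKM in the FL rats. Its groups did not overlap, and the adjusted p of 0.804 rests on a moderated SE of 0.98 for a log2 fold change of −0.38, far wider than the spread between its rats. The summed level of the 10 markers was 56724, 53789 and 55261 FPKM in the CL rats and 47810, 46955 and 45122 FPKM in the FL rats, so that every FL rat lay below every CL rat. Of the kidney markers, Umod was listed at 0 in every rat, Cubn did not exceed 0.06 FPKM, and Lrp2, the most abundant, lay between 1.35 and 3.20 FPKM. Their summed level was 2.31, 1.65 and 1.35 FPKM in the CL rats and 2.32, 3.26 and 2.41 FPKM in the FL rats. In whole tissue, fewer cells of a type and less RNA per cell cannot be told apart, which applies to every level given here.

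Most of the 9 rows kept overlapping levels in the CL and FL groups. The liver glycogen synthase Gys2 was higher in the FL group, and the liver glycogen phosphorylase Pygl lay lower in each FL rat than in any CL rat without passing the adjusted test. Of the 9 rows, 0 were upregulated and 0 downregulated in limma with the adjusted p below 0.05 and a change of 2-fold or more, beside 9.29% and 0.935% of all genes tested. Without the limit on the fold change, 1 row (Gys2) was higher and 0 were lower, beside 16.9% and 1.94% of all genes, and at an unadjusted p under 0.05 the counts were 1 (Gys2) and 1 (Pygl), beside 31.5% and 4.04%. Every FL rat lay above every CL rat in 1 row and below in 1 row, beside 35.7% and 4.78% of all genes. Counts this small over 9 rows are no result about the genes as a group.

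The median log2 fold change (FL over CL, on the log2(FPKM + 0.1) scale) was 0.14 over the 9 rows and 0.29 over all genes tested. That shift of all genes was 0.08 after median scaling between rats and −0.05 after quantile normalization, so changes are also given relative to it. The background itself was uneven, with 2518 genes higher and 288 lower at the adjusted p, against 1302 and 532 after median scaling and 784 and 533 after quantile normalization. With the fold limit the split was 1381 upregulated to 139 downregulated, and 456 to 227 after quantile normalization.

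**Figure D1:**
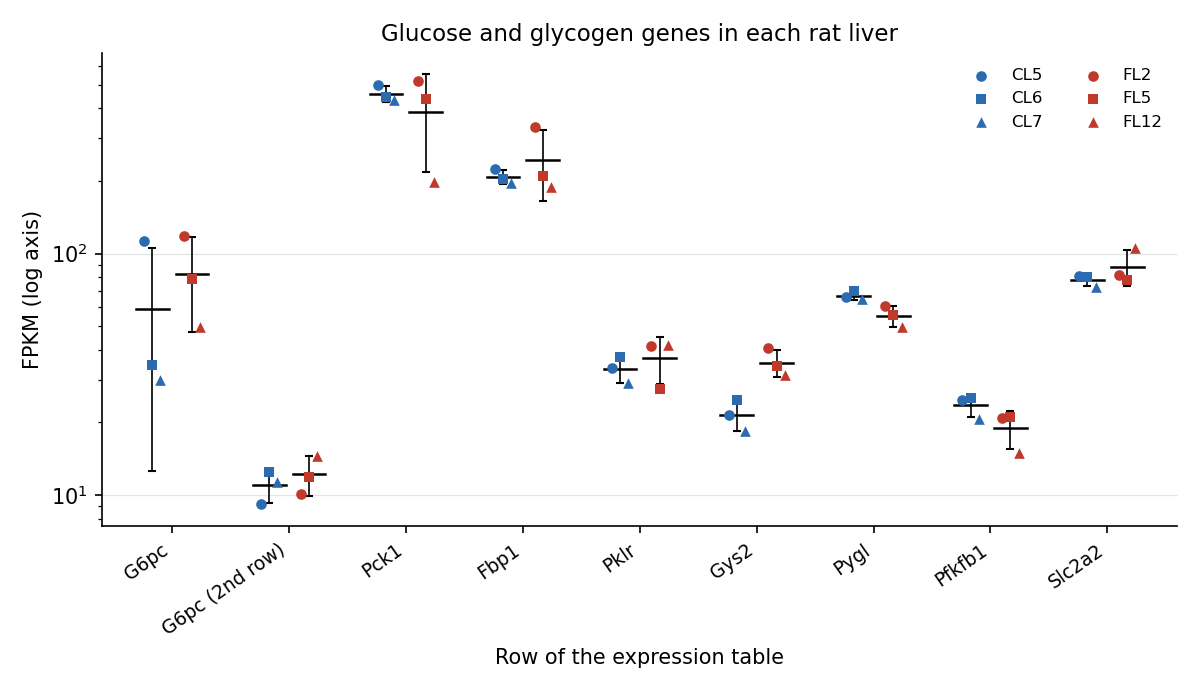
FPKM of the 9 rows in each rat on a log axis, with CL rats in blue, FL rats in red, and bars for the mean and SD of each group of 3. Gys2 lay between 18.4 and 24.8 FPKM in the CL rats and between 31.4 and 40.5 FPKM in the FL rats, while G6pc spread from 29.9 to 113 FPKM within the CL group alone.

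Among the enzymes of gluconeogenesis, Pck1 (ENSRNOG00000028616, chromosome 3), the cytosolic phosphoenolpyruvate carboxykinase that commits oxaloacetate to glucose, had the highest mean level of the 9 rows in each group. Its level was 498, 446 and 432 FPKM in the CL rats, against 519, 435 and 197 FPKM in the FL rats. FL2 lay a little above the CL rats, FL5 among them, and FL12 lay at 0.413 times the mean of the other two FL rats, so the groups overlapped. The means were 458.6 ± 35.1 and 384 ± 167 FPKM (SD, n = 3), with a log2 fold change of −0.37 (95% interval −1.16 to 0.43, adjusted p = 0.473 in limma). Without FL12 the log2 fold change was 0.05, with an adjusted p of 0.882 in a range of 0.181 to 0.882 over the alternatives. Here and below, a p that misses the threshold does not show that the groups did not differ.

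G6pc, the catalytic subunit of the phosphatase that releases free glucose, had the widest spread of the 9 rows within the CL group. The row with the higher level (ENSRNOG00000051171, chromosome 10) had 113, 34.6 and 29.9 FPKM in the CL rats and 119, 78.3 and 49.4 FPKM in the FL rats. CL5 stood at 3.49 times the mean of the other two CL rats and within the range of the FL group, and the coefficient of variation was 78.7% in the CL group and 42.3% in the FL group. The log2 fold change was 0.66 with an SE of 0.51 (95% interval −0.52 to 1.83, adjusted p = 0.386 in limma). Leaving out CL5 moved it to 1.26 (adjusted p = 0.0634) and leaving out CL7 to 0.30 (adjusted p = 0.754), and these were the ends of the range over the alternatives.

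The other row named G6pc (ENSRNOG00000051344, also on chromosome 10) lay between 9.16 and 12.5 FPKM in the CL rats and between 10.1 and 14.6 FPKM in the FL rats. CL5 was the lowest rat of the CL group in this row and the highest in the row above, so the 2 rows did not share their pattern over the rats. What this row measures is uncertain, and it is kept apart from the first.

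Fbp1 (ENSRNOG00000017597, chromosome 17), the fructose bisphosphatase of liver and kidney, was listed at 223, 204 and 196 FPKM in the CL rats and at 335, 209.5 and 188 FPKM in the FL rats. FL2 was the highest rat and FL12 the lowest, and the CL rats lay between them. The log2 fold change was 0.19 (95% interval −0.33 to 0.71, adjusted p = 0.577 in limma), and it was −0.06 without FL2. Among the FL rats, FL2 was thus the highest and FL12 the lowest in Pck1, Fbp1 and the first G6pc row, and the reverse held in the second G6pc row.

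Of 23 further genes that supply carbon to this route, 1 was upregulated and 1 downregulated, with a median log2 fold change of −0.05, or −0.33 relative to all genes. The upregulated gene was Pck2, the mitochondrial carboxykinase, at 1.79, 1.52 and 1.52 FPKM in the CL rats and 5.71, 3.59 and 3.84 FPKM in the FL rats. Its level stayed far under that of Pck1, and every FL rat exceeded every CL rat (log2 fold change 1.36 ± 0.20, SE, adjusted p = 0.00603 in limma, under 0.05 in 14 of 14 alternatives). The downregulated gene was Pdk4, a kinase that holds pyruvate dehydrogenase inactive and rises in fasting. Pdk4 was listed at 41.2, 41.6 and 35.9 FPKM in the CL rats and at 23.7, 16.3 and 13.7 FPKM in the FL rats, with no overlap (log2 fold change −1.17 ± 0.20, adjusted p = 0.00861 in limma, under 0.05 in 14 of 14 alternatives). At the unadjusted p, 3 were higher and 5 lower in limma, and every FL rat lay above every CL rat in 2 and below in 6. Ldha, which interconverts lactate and pyruvate and had the highest mean of the list in the CL group, was listed at 130.0, 125 and 117 FPKM in the CL rats and 98.7, 99.3 and 81.9 FPKM in the FL rats, with no overlap (log2 fold change −0.41, adjusted p = 0.0653 in limma). Gpd1, which had the highest mean in the FL group, ranged from 97.5 to 137 FPKM over the 6 rats with a log2 fold change of 0.08. Pyruvate carboxylase, which starts gluconeogenesis from pyruvate and is named Pc in the table, had means of 75.05 ± 12.9 and 71.6 ± 19.4 FPKM.

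In the opposite direction, Pklr (ENSRNOG00000020420, chromosome 2), the liver and erythrocyte pyruvate kinase that ends glycolysis, was listed at 33.7, 37.4 and 29.1 FPKM in the CL rats and 41.5, 27.5 and 41.7 FPKM in the FL rats. FL5 was the lowest of all 6 rats and FL2 and FL12 the highest, so the groups overlapped. Its log2 fold change was 0.12 (95% interval −0.30 to 0.55, adjusted p = 0.659 in limma).

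Pfkfb1 (ENSRNOG00000000165, chromosome X) encodes the liver enzyme that both makes and removes fructose-2,6-bisphosphate, the signal that switches between glycolysis and gluconeogenesis. Its level was 24.9, 25.2 and 20.8 FPKM in the CL rats and 20.8, 21.0 and 14.9 FPKM in the FL rats. FL12 was the lowest rat, and the groups met where CL7 lay just under FL2 and FL5. The log2 fold change was −0.33, or −0.62 relative to all genes (95% interval of the former −0.70 to 0.04, adjusted p = 0.183 in limma).

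Of 11 enzymes that liver uses for glycolysis and fructose, 1 was higher and 0 were lower at the adjusted p, with a median of 0.21, or −0.08 relative to all genes. In limma, 0 of them passed the fold limit, and 3 were higher and 0 lower at the unadjusted p. The gene that was higher was Gpi, which interconverts glucose and fructose phosphates, at 39.3, 31.2 and 25.3 FPKM in the CL rats and 54.0, 59.1 and 60.8 FPKM in the FL rats (log2 fold change 0.88 ± 0.17, adjusted p = 0.0123 in limma, under 0.05 in 14 of 14 alternatives). Every FL rat exceeded every CL rat in Gpi. Gapdh and Tpi1, enzymes that every cell uses, were listed at no more than 2.88 and 1.55 FPKM, and as the deposited values rest on uniquely placed reads, levels of genes with near-identical copies elsewhere in the genome are uncertain.

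In glycogen metabolism, Gys2 (ENSRNOG00000059753, chromosome 4), the liver glycogen synthase, was the member whose test passed. Its level was 21.4, 24.8 and 18.4 FPKM in the CL rats, against 40.5, 34.3 and 31.4 FPKM in the FL rats. The lowest FL rat exceeded the highest CL rat. Means were 21.5 ± 3.18 and 35.4 ± 4.66 FPKM (SD, n = 3), and the log2 fold change was 0.72 with an SE of 0.15 (95% interval 0.37 to 1.06, adjusted p = 0.0170 in limma), or 0.43 relative to all genes. The adjusted p was under 0.05 in 10 of 14 alternatives, with a range of 0.0159 to 0.0788. It was 0.0788 after median scaling (log2 fold change 0.49), and 0.0531, 0.0660 and 0.0551 without CL5, CL7 and FL5.

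Pygl (ENSRNOG00000006388, chromosome 6), the liver phosphorylase that breaks glycogen down, was listed at 66.3, 70.0 and 64.8 FPKM in the CL rats and at 60.6, 55.4 and 49.7 FPKM in the FL rats. The highest FL rat lay under the lowest CL rat, and the spread was small, with a coefficient of variation of 3.99% in the CL group. Its log2 fold change was −0.28 with an SE of 0.12 (95% interval −0.56 to −0.0061, adjusted p = 0.134 in limma), or −0.57 relative to all genes. After median scaling it was −0.51 with an adjusted p of 0.0438, the lowest in a range of 0.0438 to 0.30 over the alternatives.

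The ratio of Gys2 to Pygl within each rat, formed after these values were seen and not tested, was 0.323, 0.354 and 0.285 in the CL rats and 0.669, 0.619 and 0.632 in the FL rats. A ratio within a rat does not depend on scaling by 1 factor per rat. Its means were 0.320 ± 0.0349 and 0.640 ± 0.0260. The groups did not overlap in Gys2 or in Pygl and differed in opposite directions, so they could not overlap in the ratio. Their separation in it is therefore no further evidence.

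Of 17 other genes of glycogen synthesis, breakdown and control, 1 was upregulated, 0 were downregulated, and 1 was higher and 2 were lower in limma at the adjusted p, with a median log2 fold change of −0.02, or −0.31 relative to all genes. At the unadjusted p, 4 were higher and 2 lower. Gyg1, glycogenin, the protein primer on which glycogen starts, was listed at 1.75, 2.02 and 1.75 FPKM in the CL rats and 3.48, 5.52 and 3.22 FPKM in the FL rats (log2 fold change 1.07 ± 0.22, adjusted p = 0.0159 in limma). Gbe1, the branching enzyme that acts after glycogen synthase, was listed at 60.6, 62.9 and 49.7 FPKM in the CL rats and 33.0, 36.7 and 38.8 FPKM in the FL rats (log2 fold change −0.67 ± 0.13, adjusted p = 0.0145 in limma). Ppp1r3c, which brings a protein phosphatase to glycogen, was listed at 25.4, 19.2 and 19.6 FPKM and at 16.2, 10.98 and 12.6 FPKM (log2 fold change −0.69 ± 0.18, adjusted p = 0.0322 in limma). The groups did not overlap in these 3 genes, and the adjusted p was under 0.05 in 11, 11 and 8 of the 14 alternatives. Genes that act in glycogen synthesis therefore differed in direction, Gys2 and Gyg1 being higher and Gbe1 and Ppp1r3c lower. Ugp2, the most abundant of the list, overlapped between the groups, with 60.4 to 84.9 FPKM in the CL rats and 60.9 to 91.5 FPKM in the FL rats.

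In glucose entry and sensing, Slc2a2 (ENSRNOG00000011875, chromosome 2), the low-affinity glucose transporter of hepatocytes, was listed at 81.0, 79.9 and 72.9 FPKM in the CL rats and at 81.2, 78.1 and 105 FPKM in the FL rats. FL5 lay among the CL rats, FL2 just above the highest of them and FL12 further above. The log2 fold change was 0.17 (95% interval −0.17 to 0.51, adjusted p = 0.444 in limma), and it was −0.06 after median scaling.

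Gckr, a regulatory protein of the hepatocyte nucleus, was lower in the FL group. It was listed at 70.7, 71.2 and 57.4 FPKM in the CL rats and 50.1, 44.1 and 40.3 FPKM in the FL rats, with no overlap (log2 fold change −0.56 ± 0.14, adjusted p = 0.0297 in limma, under 0.05 in 9 of 14 alternatives).

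Of the 9 rows tested in the list of glucose sensing, 1 was upregulated and 1 downregulated, and 4 were higher and 2 lower at the adjusted p, with a median of 0.55, or 0.26 relative to all genes. The most abundant was Gckr, and Mlxipl had no row in the table. Txnip, which glucose induces in many cells, had means of 18.9 ± 0.883 and 28.1 ± 6.23 FPKM (log2 fold change 0.55, adjusted p = 0.0476 in limma), and its relative Arrdc4 had means of 1.71 ± 0.111 and 2.59 ± 0.222 FPKM (0.57, adjusted p = 0.0393). Each FL rat exceeded each CL rat in both, and the adjusted p was under 0.05 in 4 and 6 of the 14 alternatives. Pfkfb3, an isoform of Pfkfb1 found in many tissues, was listed at 0.62, 0.71 and 0.87 FPKM and at 1.28, 1.84 and 1.88 FPKM (log2 fold change 1.08 ± 0.23, adjusted p = 0.0192 in limma). Tbc1d4, a regulator of glucose transporter traffic, was the remaining gene that was higher (0.67, adjusted p = 0.0336). For Pfkfb3 and Tbc1d4 the adjusted p was under 0.05 in 9 and 6 of the 14 alternatives.

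Of 36 rows for the hormonal and transcriptional control of these genes, 2 were upregulated and 0 downregulated in limma, and 5 were higher and 1 lower at the adjusted p, with a median of 0.13, or −0.16 relative to all genes. At the unadjusted p, 10 were higher and 2 lower. Of the upregulated genes, Fgf21, a hormone secreted by liver, was listed at 4.65, 1.86 and 3.11 FPKM in the CL rats and 11.4, 5.01 and 17.8 FPKM in the FL rats. The groups differed by a log2 fold change of 1.71 (limma adjusted p = 0.0412), with no overlap between the groups, but the adjusted p was under 0.05 in 4 of 14 alternatives. Prkaca, a catalytic subunit of the kinase that carries the glucagon signal, was lower, at 22.5, 24.8 and 23.9 FPKM in the CL rats and 17.5, 18.7 and 16.3 FPKM in the FL rats (log2 fold change −0.44 ± 0.11, adjusted p = 0.0286 in limma, under 0.05 in 8 of 14 alternatives). Sik1 and Sik2, kinases that restrain the coactivators of the glucagon response, were higher, with log2 fold changes of 0.60 (adjusted p = 0.0373) and 0.84 (adjusted p = 0.00769) in limma. For Sik2 the adjusted p was under 0.05 in 14 of 14 alternatives and for Sik1 in 6. The coactivator Ep300 was also higher (0.41, adjusted p = 0.0456 in limma, under 0.05 in 6 of 14). Hnf4a, which had the highest mean of the list in the CL group but lay under Igfbp1 in the FL group, was between 119 and 131 FPKM in the CL rats and between 108 and 109 FPKM in the FL rats, with a log2 fold change of −0.21 and an adjusted p of 0.239.

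Isoforms that carry out the same steps in other tissues, such as Pkm, Hk2 and Hk3, were in part upregulated in the FL group. Of 15 rows tested, 7 were upregulated and 0 downregulated, 9 were higher and 0 lower in limma at the adjusted p (12 and 0 at the unadjusted p), and in 13 every FL rat exceeded every CL rat. The median log2 fold change was 1.31, or 1.02 relative to all genes, and the most abundant was Aldoa. Their levels were low beside those of the liver isoforms. Pkm, the pyruvate kinase of most tissues, was listed in its row on chromosome 8 at 0.95, 1.36 and 0.95 FPKM in the CL rats and 3.26, 5.43 and 4.45 FPKM in the FL rats (log2 fold change 1.90 ± 0.23, adjusted p = 0.00402 in limma). A further row named Pkm on chromosome 20 had a log2 fold change of 1.69. Hk2 and Hk3, hexokinases of high affinity for glucose, had log2 fold changes of 1.76 (adjusted p = 0.00435) and 1.97 (adjusted p = 0.00490) in limma. Pygb, the brain phosphorylase, was listed at 0.86, 0.69 and 0.78 FPKM and at 1.47, 2.91 and 2.03 FPKM (log2 fold change 1.30 ± 0.26, adjusted p = 0.0149 in limma). The muscle glucose transporter Slc2a4 did not exceed 0.01 FPKM in any rat.

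Ratios of members to other isoforms of the same step were formed within each rat after the values were seen and were not tested. The denominators came from the list of isoform partners, except the mitochondrial Pck2, which came from the list of carbon supply. Pklr over the chromosome 8 row of Pkm was 35.5, 27.5 and 30.6 in the CL rats and 12.7, 5.07 and 9.36 in the FL rats, and the Pkm row on chromosome 20, of about the same level, is not in it. Pygl over Pygb had means of 87.2 ± 12.7 and 28.3 ± 11.6, and Pck1 over Pck2 of 285 ± 7.60 and 87.9 ± 35.1, with no overlap between the groups in either ratio. For Pygl over Pygb this had to follow, as neither gene overlapped and they differed in opposite directions. Gys2 over Gys1 (29.6 ± 6.77 and 27.1 ± 6.08) and Slc2a2 over Slc2a1 (57.0 ± 16.4 and 59.3 ± 15.1) overlapped.

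**Figure D2:**
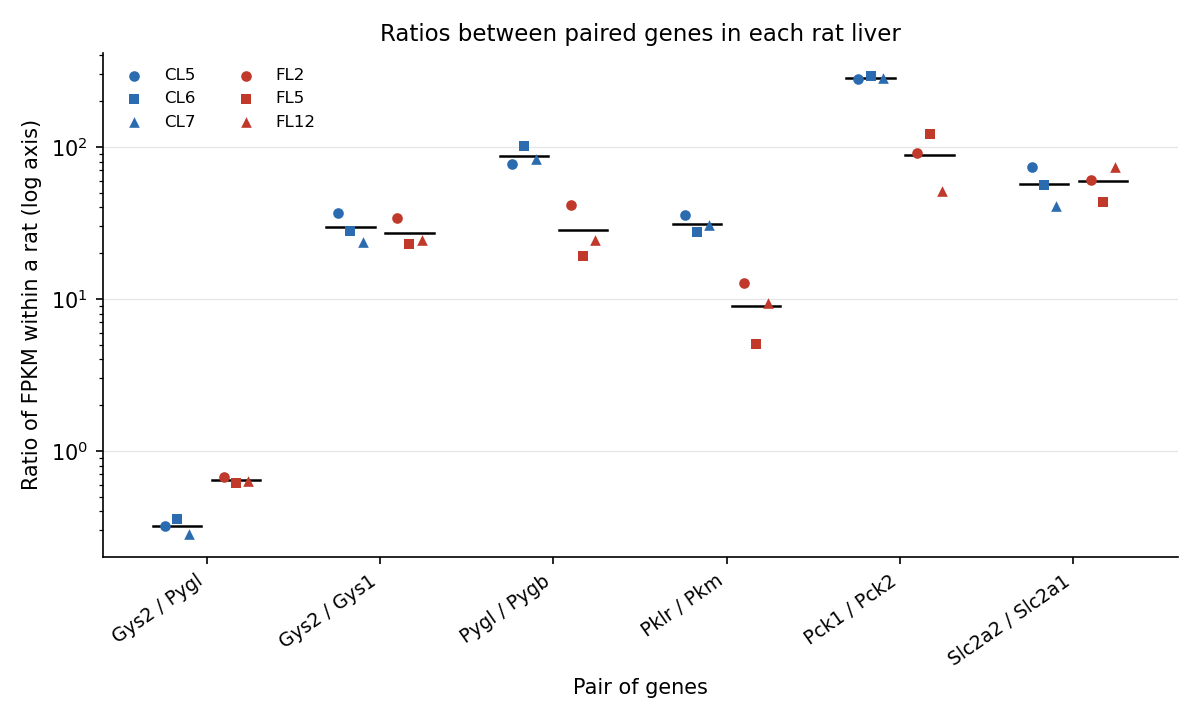
Ratio of the FPKM of paired genes within each rat on a log axis, with CL rats in blue, FL rats in red and a bar at the mean of each group of 3. Gys2 over Pygl lay between 0.619 and 0.669 in the FL rats, above the 0.285 to 0.354 of the CL rats, while Pklr over the chromosome 8 row of Pkm lay between 5.07 and 12.7 in the FL rats, below the 27.5 to 35.5 of the CL rats.

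Some markers of other cell types were also higher in the FL group, mostly of stellate cells and macrophages, while others in the same lists were not, and their part in these results was not tested. Of 9 stellate cell or myofibroblast markers tested, 4 were upregulated and 5 were higher at the adjusted p, the most abundant being Col3a1, and their summed level was 88.3, 94.2 and 85.4 FPKM in the CL rats and 206, 546 and 494 FPKM in the FL rats. Col1a2 of this list did not exceed 0.18 FPKM. Of 10 macrophage markers, 5 were upregulated and 6 were higher, the most abundant being Clec4f in the CL group and Cd5l in the FL group, with a sum of 158, 146 and 148 FPKM in the CL rats and 348, 347 and 216 FPKM in the FL rats. For 5 lymphocyte markers, Ptprc was the most abundant and the 1 upregulated, but it marks all white blood cells, macrophages included. Cd3e, Cd3d and Nkg7 overlapped between the groups, and the B cell marker Ms4a1 did not exceed 0.27 FPKM. Cd79a did not overlap, at 0.37, 0.37 and 0.53 FPKM in the CL rats and 1.25, 1.04 and 0.56 FPKM in the FL rats. Its log2 fold change was 0.96, with an adjusted p of 0.078 in limma.

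For 6 cholangiocyte markers, 1 was upregulated, Spp1, which other cells express too and which was the most abundant in the FL group, as Epcam was in the CL group, and the sum was 5.75, 10.6 and 6.32 FPKM in the CL rats and 12.7, 68.7 and 42.4 FPKM in the FL rats. The defining markers Krt19 and Krt7 lay between 0.39 and 1.06 FPKM and between 0.09 and 0.62 FPKM. They overlapped between the groups, as did Epcam and Sox9. Cftr did not overlap, at 0.12, 0.07 and 0.07 FPKM in the CL rats and 0.2, 0.34 and 0.91 FPKM in the FL rats. Its log2 fold change was 1.46, with an adjusted p of 0.0745 in limma. Of 6 endothelial markers, 1 was upregulated and 2 were higher, Kdr being the most abundant in the CL group and Lyve1 in the FL group, and the sums of 73.7, 72.2 and 64.8 FPKM and of 88.9, 75.5 and 83.4 FPKM did not overlap, although the lowest FL sum exceeded the highest CL sum by little. For 6 markers of cycling cells, 2 were upregulated, Mki67, the most abundant, and Birc5, and the sum was 2.67, 5.0 and 3.23 FPKM in the CL rats and 4.45, 19.9 and 17.1 FPKM in the FL rats, with FL2 among the CL rats. The adjusted p in limma was under 0.05 in 3 of 14 alternatives for Mki67 and in 9 of 14 for Birc5. Of 6 erythroid markers, 0 passed in limma in either direction (0 higher and 1 lower at the unadjusted p), Klf1 did not exceed 0.07 FPKM, and the sum, led by Hbb, was 87.9, 154 and 110.4 FPKM in the CL rats and 123, 46.9 and 49.6 FPKM in the FL rats. The isoform partners summed to 26.8, 27.6 and 23.2 FPKM in the CL rats and 46.8, 67.7 and 53.6 FPKM in the FL rats. FL5 was highest in this sum and in those of the stellate, lymphocyte, cholangiocyte and cycling lists. FL2 was highest in the macrophage and endothelial sums. Single genes led some of these sums, as Spp1 (60.6 FPKM) did the cholangiocyte sum in FL5, where Krt19 and Krt7 were at their lowest. A link between these sums was not tested.

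Because gluconeogenesis is a feature of hepatocytes near the portal vein rather than the central vein, lists of genes known for these zones were read beside the members. Of 14 periportal rows, which include those of Pck1, G6pc and Fbp1, 0 were upregulated and 0 downregulated in limma, and 0 were higher and 2 lower at the adjusted p as at the unadjusted p, with a median of −0.06, or −0.35 relative to all genes. The genes that were lower were Hal, which degrades histidine, at 58.6, 51.1 and 49.0 FPKM and 22.8, 41.7 and 20.6 FPKM (log2 fold change −0.96 ± 0.25, adjusted p = 0.0347 in limma, under 0.05 in 7 of 14 alternatives), and Cyp2f4, at 16.1, 14.4 and 17.4 FPKM and 9.35, 9.88 and 9.47 FPKM (−0.73 ± 0.11, adjusted p = 0.00689, 14 of 14). Of 12 pericentral genes, 3 were upregulated and 1 was downregulated, and 5 were higher and 1 lower at the adjusted p. At the unadjusted p, 5 were higher and 2 lower in limma, and the median was 0.63, or 0.34 relative to all genes. Glutamine synthetase (Glul) was listed at 107, 89.1 and 80.7 FPKM in the CL rats and 135, 133 and 194 FPKM in the FL rats (log2 fold change 0.73 ± 0.19, adjusted p = 0.0344 in limma, under 0.05 in 6 of 14 alternatives). The upregulated genes were Rhbg, Tbx3 and Cyp7a1, with log2 fold changes of 2.13, 1.32 and 1.80 and adjusted p of 0.0146, 0.0176 and 0.0134 in limma, and Axin2 was higher at 0.86 (adjusted p = 0.0126). The most abundant genes of the lists were Alb and Cyp2e1. Cyp2e1 overlapped between the groups (log2 fold change 0.21, adjusted p = 0.571 in limma). Oat (−0.98, adjusted p = 0.0857) and Cyp1a2 (−0.24, adjusted p = 0.639) also overlapped, so the pericentral genes did not share 1 direction.

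Within the CL group, the order of mean levels was Pck1, Fbp1, Slc2a2, Pygl, G6pc, Pklr, Pfkfb1, Gys2 and the second G6pc row. Neighbours in that order whose ranges over the rats overlapped were Pygl with G6pc, G6pc with Pklr, and Pfkfb1 with Gys2. Within the FL group the order was Pck1, Fbp1, Slc2a2, G6pc, Pygl, Pklr, Gys2, Pfkfb1 and the second G6pc row, and the ranges overlapped between Pck1 and Fbp1, between Slc2a2 and G6pc, between G6pc and Pygl, and between Pklr and Gys2. Gys2 and Pfkfb1 overlapped in the CL group, whereas in the FL group the lowest Gys2 level (31.4 FPKM) exceeded the highest Pfkfb1 level (21.0 FPKM).

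The genes whose profile over the 6 rats was nearest to that of Gys2, the member with the largest log2 fold change, were Cst3, Itgb1bp1 and Trex1, among 10534 genes averaging 1 FPKM or more. The measure was the root mean square difference of log2(FPKM + 0.1) from the mean of the CL group, and it was 0.0526, 0.0817 and 0.0825. Cst3, a secreted protease inhibitor, was listed at 20.6, 24.0 and 18.3 FPKM in the CL rats and 37.8, 34.8 and 32.6 FPKM in the FL rats. For Pck1, the member with the lowest log2 fold change, the nearest were Gpt, Irgm and Rnf39 at 0.154, 0.169 and 0.193. Gpt, an alanine aminotransferase that makes pyruvate from alanine, was listed at 19.3, 19.5 and 19.8 FPKM in the CL rats and 18.9, 17.6 and 7.13 FPKM in the FL rats, so that FL12 was the low rat in Gpt as in Pck1.

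Promoter windows, 250 bases before to 50 after the 1 start site that the RefSeq table uses for each gene, were taken from it (rat build GRCr8) for all 8 symbols, with G6pc matched as G6pc1. For Fbp1, Pklr, Pfkfb1 and Slc2a2 that site lies inside the gene as RefSeq lists it, and positions are counted from the site used. The windows were searched on both strands for the cAMP response element TGACGTNA, held by 3.25% of 33469 promoters, the E-box CACGTG (6.42%), the forkhead motif TGTTTAC (3.78%), the D-box TTANGNAA (11.8%) and the glucocorticoid receptor motif TGTTCT (20.7%). One match was found in each of 3 members and none overlapped another. Slc2a2 held TGTTCT at −153 to −148, and the E-box and forkhead letters were in 0 of the 8 windows, which says nothing of the factors that bind them. Pck1 and G6pc1 are shown because they hold the letters through which glucagon signalling (the cAMP response element) and the clock factors Dbp, Tef and Hlf (the D-box) are known to act, with the match in capitals. A match is a description and no measured site, and the lack of a match does not show that a factor cannot bind. The Pck1 window is chr3:182348322-182348621 on the plus strand, with the match at −93 to −86, and the G6pc1 window is chr10:86807409-86807708 on the plus strand, with the match at −174 to −167.
Pck1: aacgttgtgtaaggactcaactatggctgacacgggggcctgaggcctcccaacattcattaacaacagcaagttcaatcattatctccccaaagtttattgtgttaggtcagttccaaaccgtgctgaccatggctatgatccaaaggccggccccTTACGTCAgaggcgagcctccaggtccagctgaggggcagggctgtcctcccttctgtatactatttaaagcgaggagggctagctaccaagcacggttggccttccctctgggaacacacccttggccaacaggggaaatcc
G6pc1: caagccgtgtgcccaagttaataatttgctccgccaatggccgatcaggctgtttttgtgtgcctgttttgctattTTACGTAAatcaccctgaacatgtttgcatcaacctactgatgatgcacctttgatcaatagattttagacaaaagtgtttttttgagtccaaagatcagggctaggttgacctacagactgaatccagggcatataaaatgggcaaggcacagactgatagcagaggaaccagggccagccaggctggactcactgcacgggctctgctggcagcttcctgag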

How the data were processed

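Reads were cleaned with FASTX-Toolkit and placed with TopHat2 by the authors, who deposited FPKM per gene from uniquely placed reads, with 2 decimals. The labels name the build GRCh38, although the table holds rat Ensembl identifiers. Total reads were not used here, so no counting interval is given. A further 2 columns of values matched no sample and were not used. Genes above 0 numbered 16056 to 17138 per rat, and genes of at least 1 FPKM 9836 to 10040 in the CL rats and 10554 to 11083 in the FL rats. Pairs of rats shared 0.866% to 2.54% identical values.

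FPKM are not counts, so limma with a trended prior was fitted to log2(FPKM + 0.1) over all genes averaging 0.1 FPKM or more, with Benjamini-Hochberg adjustment over all of them. SE and 95% intervals are limma's moderated ones. Alternatives changed the pseudocount, filter, scaling, limma prior or left out 1 rat. Members were named with each rat's value. From the lists (carbon supply, glycolysis and fructose, glycogen, glucose sensing, hormonal control, isoform partners, periportal, pericentral, clock, fed and fasted genes, and cell markers), genes past the adjusted p, the most abundant and partners of members could be named. Members and lists were chosen with earlier results of these data known. The fit was tested on simulated data. limma 3.58.1 ran in R 4.3.3, and pandas 2.3.3, numpy 2.4.6 and matplotlib 3.10.9 ran in Python 3.11.15. Promoters came from RefSeq. Some genes of the lists are counted in them but not reported here by name.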

Additional observations from a re-analysis of the deposited data

How the results depend on the processing

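The counts of members passing both limits were 0 in each direction under each of the 14 alternatives in limma. At the adjusted p alone, the count of higher members (1, Gys2) was 0 after median scaling and 0 to 1 when each rat was left out in turn, and the count of lower members (0) was 1 (Pygl) after median scaling, where the median log2 fold change of all genes was 0.08 in place of 0.29. Among the members, the sign reversed for the second G6pc row after median scaling (−0.0819) and quantile normalization (−0.062), for Pck1 without FL12 (0.055, in a range of −0.643 to 0.055 when each rat was left out), for Fbp1 after median scaling (−0.0341) and without FL2 (−0.0603, in a range of −0.0603 to 0.355 when each rat was left out), for Pklr after median scaling (−0.0999) and for Slc2a2 after median scaling (−0.0577), and none of these passed the adjusted p. Over all genes, the 1381 upregulated became 462 with a pseudocount of 1, 854 with a mean of at least 1 FPKM, 824 after median scaling and 456 after quantile normalization, and 740 to 1831 when each rat was left out. The 139 downregulated became 72 with a pseudocount of 1 and 227 after quantile normalization, and 81 to 160 when each rat was left out. The 2518 higher genes became 1302 and 784, and the 288 lower genes 532 and 533, after median scaling and quantile normalization, with 938 to 3198 and 121 to 338 when each rat was left out. Leaving out a rat leaves fewer samples to test, and beyond that the cause was not tested. No paired analysis was made, because the CL and FL rats are separate animals with no stated pairing. With 3 rats a group and no read totals used here, small differences and levels near 0.1 FPKM are measured least well, and median scaling and the choice of rats moved the result of Gys2 across the threshold.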

Other observations

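Genes of the circadian clock, several of which also drive rhythmic genes of glucose metabolism, also differed between the groups. Of 14 clock genes, 7 were upregulated and 4 downregulated, and 8 were higher and 4 lower in limma at the adjusted p, with a median log2 fold change of 1.16, or 0.87 relative to all genes. Dbp, an output factor of the clock, was listed at 0.46, 0.91 and 0.81 FPKM in the CL rats and 25.6, 27.1 and 31.8 FPKM in the FL rats, from among the lowest of the list in the CL group to the highest in the FL group (log2 fold change 5.13 ± 0.23, adjusted p = 0.000126 in limma). Nfil3 had the highest mean of the list in the CL group. Arntl, a clock activator, was listed at 12.4, 11.6 and 10.7 FPKM in the CL rats and 3.71, 3.82 and 2.88 FPKM in the FL rats (−1.72 ± 0.15, adjusted p = 0.00164 in limma). For both genes the adjusted p was under 0.05 in 14 of 14 alternatives. The hour of sampling is not given for either group, so a difference in hour and a difference in treatment cannot be told apart, and the part of the clock in the levels of Pdk4 and Gys2 was not tested.

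Genes that follow feeding and fasting gave no single direction. Of 12 tested, 1 was upregulated (Fgf21) and 1 downregulated (Pdk4), with a median log2 fold change of 0.47, or 0.18 relative to all genes. Igfbp1, which insulin represses, was listed at 138, 36.5 and 28.2 FPKM in the CL rats and 122, 95.0 and 135 FPKM in the FL rats, and CL5 stood apart from CL6 and CL7 in this gene as in G6pc. Fasn, the fatty acid synthase, was listed at 42.7, 25.5 and 14.6 FPKM in the CL rats and 47.5, 30.9 and 80.2 FPKM in the FL rats, and FL12 was the highest. Sds, which turns serine into pyruvate, ranged from 1.60 to 24.6 FPKM within the CL group and from 2.06 to 24.3 FPKM within the FL group.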
